A study of Mus musculus with 6 samples.

Results

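The genes of fatty acid oxidation and of its nuclear receptor PPAR-alpha were described in injured mouse kidneys, as 31 genes of the 25805 that each deposited library lists. They were taken by name: every row whose gene name was a member of the set entered, and all 31 were found. Kidney RNA was sequenced from mice labelled CXCR2 knockout (3 libraries) and from mice labelled WT (3 libraries). Cxcr2 encodes a chemokine receptor best known from neutrophils. Both groups had been through ischaemia-reperfusion injury (IRI), in which the blood supply of the kidney is interrupted and restored, without uninjured kidneys among the libraries analysed. The sources used here do not give the strain, age or sex of the mice, the time after injury or the deleted stretch of Cxcr2. Values are normalized read counts, that is, read counts divided by a size factor for each library. Whether the libraries stem from separate animals is not stated in the labels, so p-values measure the spread between these libraries, which may be technical.

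Fatty acids enter oxidation as acyl-CoA, made by acyl-CoA synthetases, and reach the mitochondrial matrix as carnitine esters. There, repeated rounds of dehydrogenation, hydration, a further dehydrogenation and thiolytic cleavage shorten the chain, while peroxisomes run a related pathway on very long and branched chains. PPAR-alpha, with its partner RXR, switches on many of these genes, and the proximal tubule of the kidney, rich in mitochondria, draws much of its energy from fatty acids.

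None of the 31 genes differed between the groups at an adjusted p under 0.05. All 31 passed the filter on low values, and limma called 0 of 31, against 0.0046% of all 21721 genes tested. The quasi-likelihood test of edgeR also called 0 (0.00628% of its genes) and DESeq2 called 0 (1.95%). At an unadjusted p under 0.05, limma had 2 members, Acaa1b and Etfb, both lower in the labelled-knockout libraries, against a background of 10.1%. There edgeR had 2 members (background 11.7%) and DESeq2 had 1 (8.53%). With limma the count was 0 without wild-type library 1 and 2 without each of the others, with other genes in 3 cases: Acaa2 and Etfb without labelled-knockout library 1, Echs1 and Hadhb without labelled-knockout library 3, and Acaa1a and Acads without wild-type library 3. The log2 fold change was above 0 for 20 members and below 0 for 11. The median log2 fold change over the members was 0.07, against -0.001 over all genes tested. For 24 members the 95% interval of the fold change lay within 2-fold either way. The 7 whose interval reached beyond were Pdk4, Acsl1, Acadm, Hadhb, Echs1, Acaa2 and Acaa1b. The RNA is from kidney tissue, so fewer cells of a type and less RNA per cell cannot be told apart. Cxcr2 itself, at 98.0, 36.8 and 56.6 normalized counts in labelled-knockout libraries 1, 2 and 3 and 15.9, 88.8 and 56.9 in wild-type libraries 1 to 3, was not lower in the labelled knockout. Its values sum the whole gene, so reads outside a deleted stretch check nothing, and every direction given is between libraries as labelled.

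**Figure D1:**
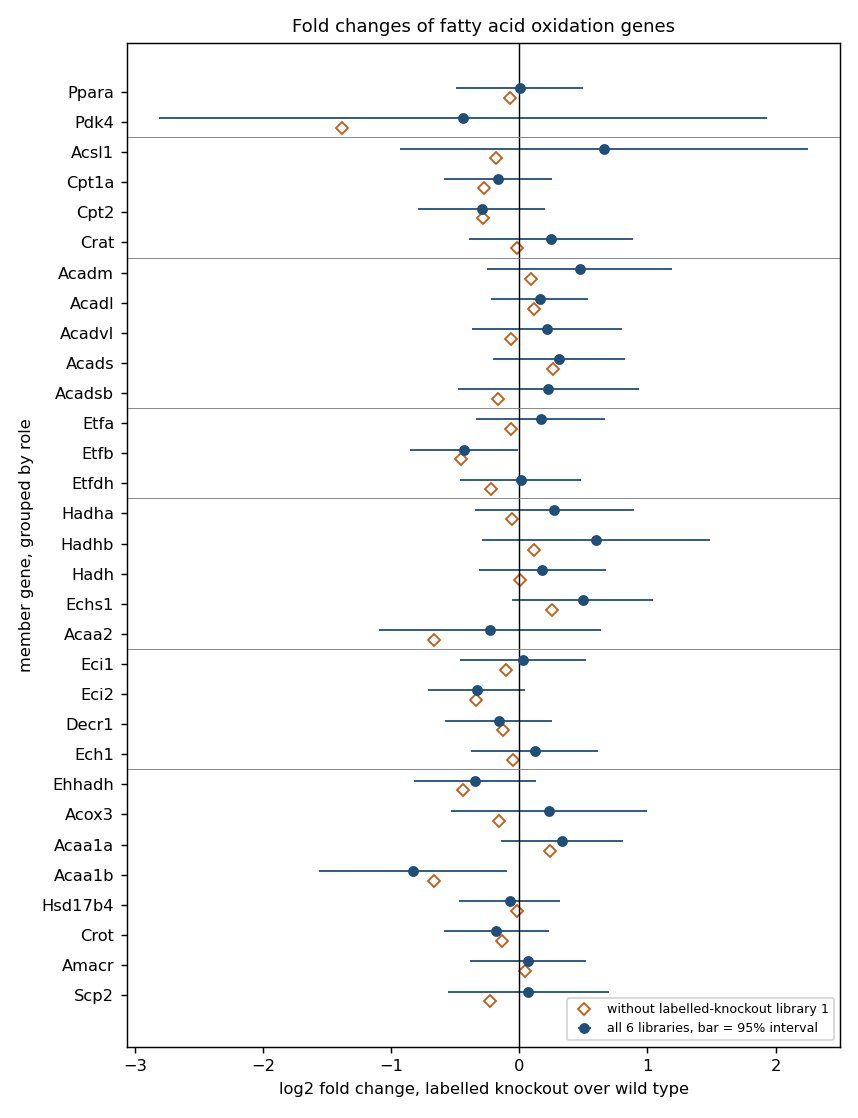
Log2 fold change of each member, labelled Cxcr2 knockout over wild type (x axis, log2 scale), with 1 row per member; bars are the 95% intervals of limma and open marks the value without labelled-knockout library 1. All intervals but those of Acaa1b and Etfb include 0, and those of Pdk4 and Acsl1 are the widest.

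Library 1 stood apart within the labelled knockout. It held the highest of the 6 values for 18 of the 31 members (58.1%), against 28.4% of all genes tested. In 7 members it was more than 1.5 times the next highest library. Its median deviation from the wild-type mean was 0.46 on the log2 scale over the members, against -0.03 in labelled-knockout library 2 and -0.15 in library 3. Wild-type libraries 1, 2 and 3 had 0.00, -0.27 and 0.18. Without labelled-knockout library 1, 8 members were higher and 23 lower in the labelled knockout, at a median log2 fold change of -0.11, and 12 members changed sign. Without wild-type library 2 the split was 15 higher and 16 lower, with a median of -0.02. Labelled-knockout libraries 2 and 3 both lay inside the wild-type range for 15 members.

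Library 1 of the labelled knockout also held the most fat cell RNA and the least of an injury marker. The 7 brown fat markers listed in the files, which include Ucp1, Cidea and Elovl3, summed to 11979, 383 and 106 normalized counts in labelled-knockout libraries 1, 2 and 3, against 185, 87.9 and 100 in wild-type libraries 1 to 3. Library 1 was highest for all 7, and Cidea, Elovl3 and Cox8b were at 0 in labelled-knockout library 3 and in wild-type libraries 2 and 3. Ppargc1b, among the 7, is also counted with the nuclear receptors and cofactors of a wider list given below. It had 280 in labelled-knockout library 1 and 62.0 to 120 in the others. The 8 general fat cell markers summed to 70077, 8543 and 4535 in the labelled knockout and 8233, 6094 and 4570 in wild type. Fat cells express many of the same oxidation genes. Havcr1, which injured proximal tubules switch on, was at 1321, 22632 and 54545 in labelled-knockout libraries 1, 2 and 3, against 21442, 29373 and 30696 in wild-type libraries. The 15 proximal tubule markers summed to 266736, 275838 and 298221 in the labelled knockout and 333519, 244086 and 313577 in wild type. That sum was led by Kap, at 56848, 102407 and 182660 in the labelled knockout and 184700, 159451 and 185452 in wild type. Taken gene by gene, labelled-knockout library 1 was the highest for 9 of the 15, and their median deviation from the wild-type mean was 1.16 there on the log2 scale, with 0.61 and 0.05 in labelled-knockout libraries 2 and 3. Other marker lists set labelled-knockout library 1 apart as well. It was the highest for 6 of 7 erythrocyte, 7 of 8 neutrophil and 6 of 8 thick limb and distal tubule markers. Of 8 endothelial markers it was the highest for 1, and of 8 macrophage markers for 3. The part of fat cell RNA, tubule RNA, RNA of other cells or injury state in the values of the members was not tested.

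**Figure D2:**
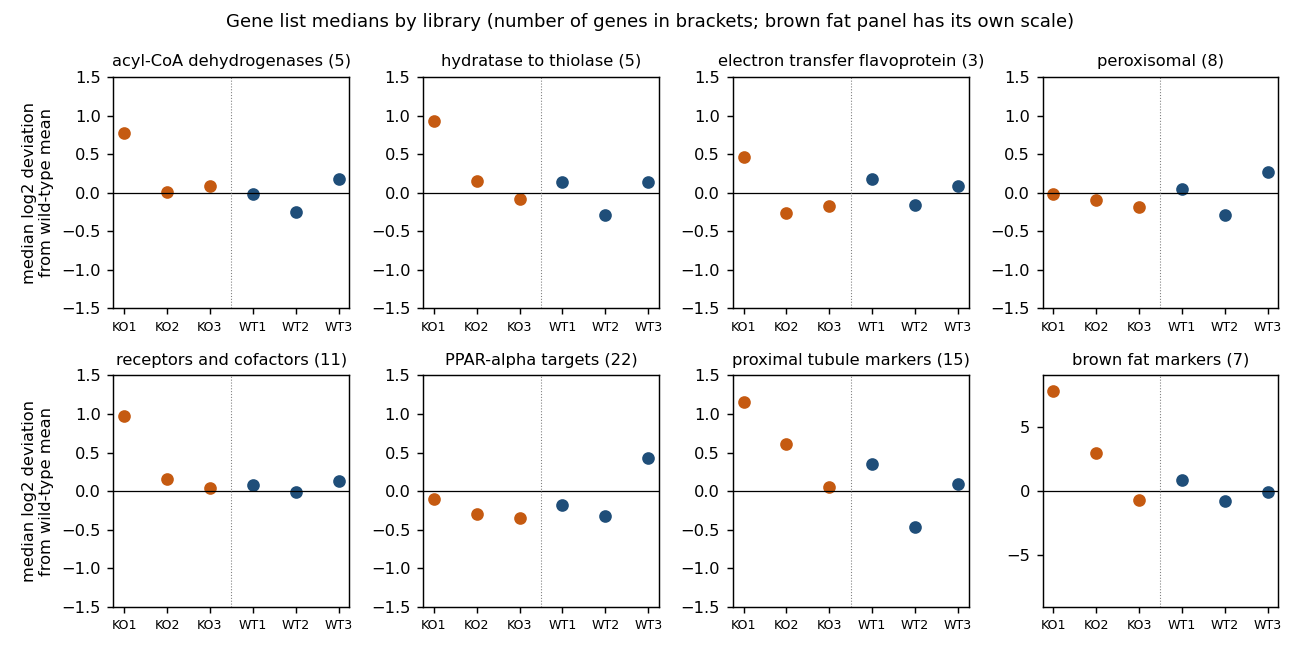
Median deviation from the wild-type mean (y axis, log2 scale) in each of the 6 libraries for 4 role classes of the members, 2 classes of the wider list, and proximal tubule and brown fat markers, with KO for labelled knockout and a separate scale for brown fat. The acyl-CoA dehydrogenases sat at 0.78 in labelled-knockout library 1, where brown fat markers sat at 7.82, and between -0.25 and 0.18 in the other 5 libraries.

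Wild-type libraries also differed in step over the members. Wild-type library 3 was the highest of its group for 22 of the 31 (34.8% of all genes) and wild-type library 2 the lowest for 26 (31.9% of all genes). The members together took 0.921%, 0.700% and 0.604% of all reads in labelled-knockout libraries 1, 2 and 3, and 0.776%, 0.650% and 0.883% in wild-type libraries 1 to 3. The ranges of the groups overlapped.

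**Figure D3:**
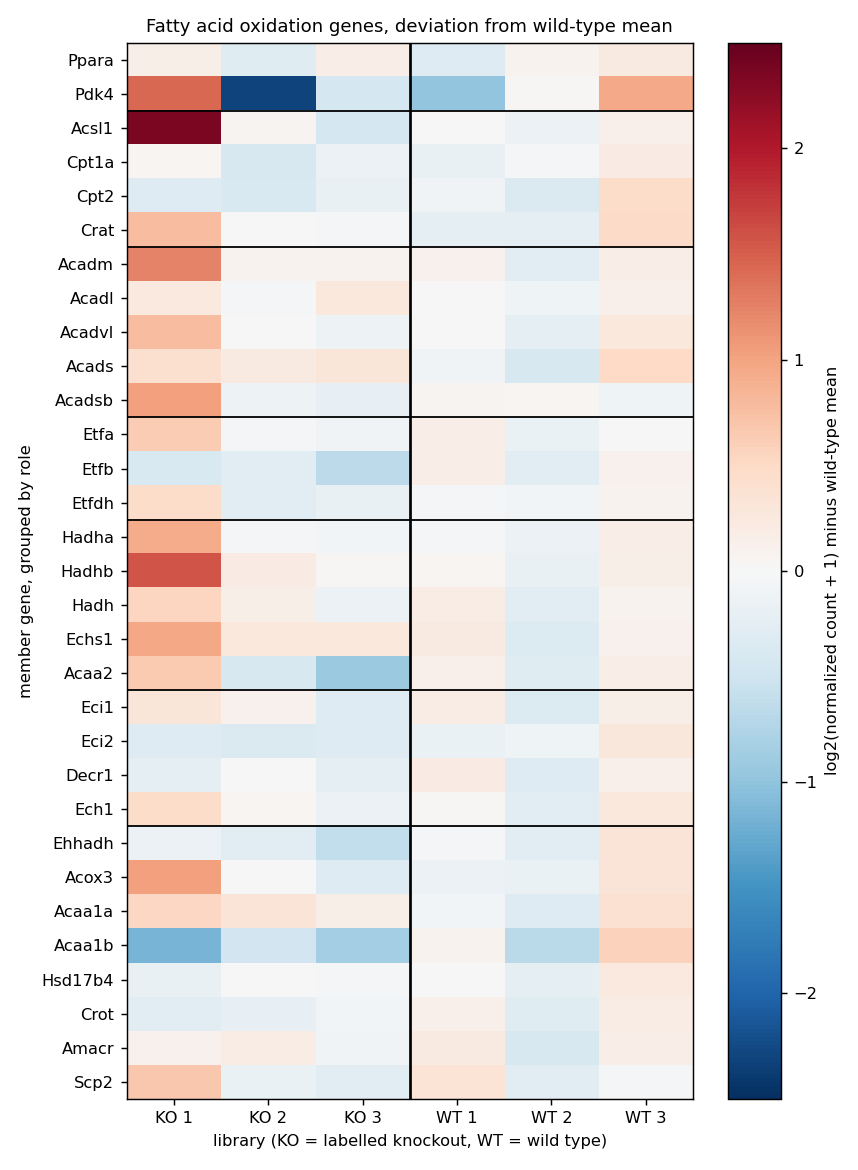
Deviation of each member from its wild-type mean (colour, log2 scale) in the 6 libraries, labelled knockout on the left, with members grouped by role. Labelled-knockout library 1 is above the wild-type mean for most mitochondrial members, and Acaa1b has its lowest value there.

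Genes were ranked by normalized count per kilobase of the gene length given with the values. Whether that length matches the transcripts made in kidney was not tested, so ranks between genes are approximate. The peroxisomal thiolase Acaa1b stood first in both groups, by its mean. It had 4209 ± 1020 in the labelled knockout and 7801 ± 3176 in wild type (SD, n = 3 each). Acadl followed in the labelled knockout with 3824 ± 450, against 3415 ± 292 in wild type, so Acaa1b and Acadl did not differ beyond their spread in the labelled knockout. Ech1 had 3408 ± 735 in the labelled knockout and 3129 ± 592 in wild type. Ehhadh had 2765 ± 440 in the labelled knockout and 3527 ± 734 in wild type. In wild type, neighbours such as Ehhadh, Acadl and Ech1 did not differ beyond their spread. Ppara was the lowest of the 31, at 126 ± 23 per kilobase in the labelled knockout and 126 ± 23 in wild type.

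Of the regulators, Ppara, the receptor itself, had nearly equal means in both groups. It had 532, 385 and 537 normalized counts in labelled-knockout libraries 1, 2 and 3 and 384, 512 and 556 in wild-type libraries 1 to 3. The groups overlapped fully, with means of 485 ± 86.3 in the labelled knockout and 484 ± 89.1 in wild type (SD, n = 3 each). On the log2 scale the fold change was 0.003 (limma SE 0.22, 95% interval -0.49 to 0.50, adjusted p = 0.999). Pdk4, the kinase that shuts off pyruvate dehydrogenase and so favours fat over glucose, is a well-known PPAR-alpha target. Its 6 values spread 13.6-fold: 7045, 518 and 1910 in the labelled knockout, against 1305, 2654 and 5030 in wild type. Both the highest and the lowest library were labelled knockout. Its log2 fold change came to -0.44 (limma SE 0.98, adjusted p = 0.904), and -1.38 without labelled-knockout library 1. It was 0.07 with edgeR and 0.08 with DESeq2.

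Activation and the carnitine shuttle showed no shared direction over all libraries. Without labelled-knockout library 1, all 4 genes had a log2 fold change below 0, at a median of -0.23. Acsl1, which couples long-chain fatty acids to CoA and is abundant in fat tissue, had 13503, 2769 and 1963 normalized counts in labelled-knockout libraries 1, 2 and 3 and 2647, 2407 and 2909 in wild-type libraries. Library 1 of the labelled knockout stood 5.32 times above the mean of the other 5 libraries. The log2 fold change of 0.66 (limma SE 0.67, adjusted p = 0.756) became -0.18 without it. Cpt1a, the outer-membrane carnitine acyltransferase that sets the rate of entry, had 7639, 5636 and 6685 in the labelled knockout and 6551, 7238 and 8579 in wild type. Its groups overlapped, at a log2 fold change of -0.17 (limma SE 0.18, adjusted p = 0.778). Cpt2, which hands the chain back to CoA inside the mitochondrion, had 3390, 3248 and 3694 in the labelled knockout and 3985, 3259 and 5762 in wild type. Its fold change on the log2 scale was -0.29 (limma SE 0.22, adjusted p = 0.668), and -0.07 without wild-type library 3, which stood highest. Crat, which makes short-chain carnitine esters, had a log2 fold change of 0.25 in favour of the labelled knockout, and -0.02 without its library 1.

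**Figure D4:**
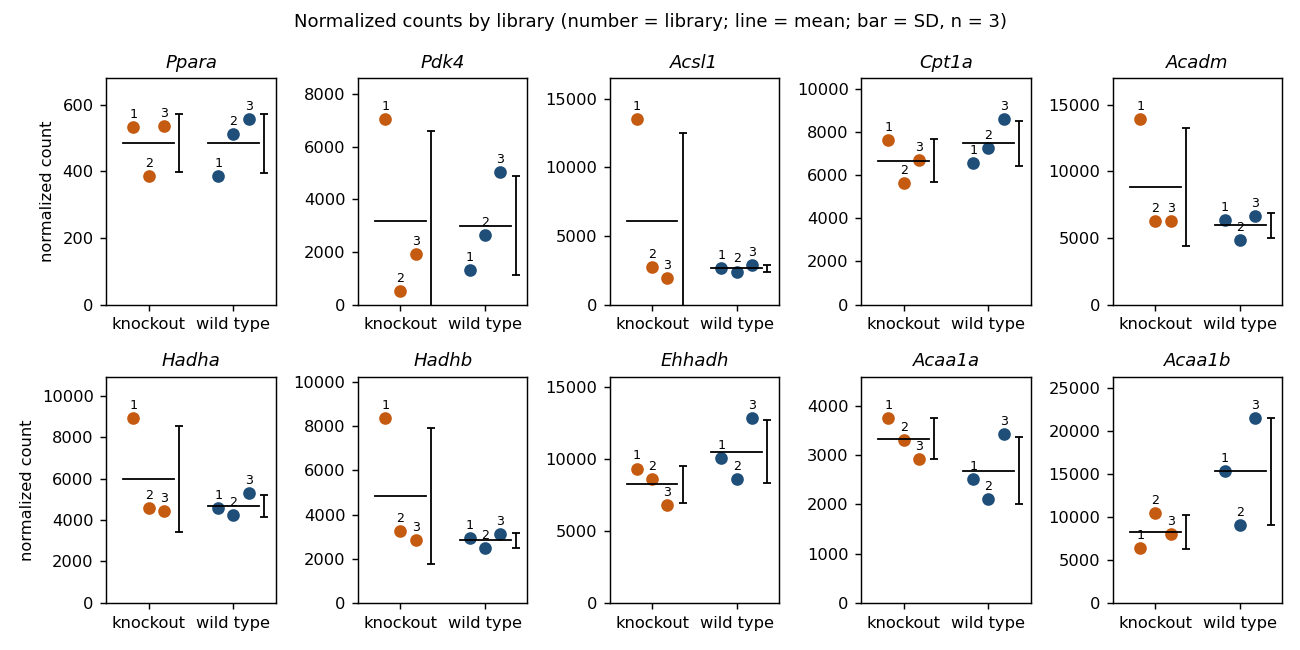
Normalized counts (y axis, linear, from 0) of members named in the text in each library, labelled knockout left of wild type; points are libraries, lines are means and bars SD (n = 3), cut at 0 for Pdk4 and Acsl1 in the labelled knockout, where they would pass below it. For Acsl1 the point at 13503 is labelled-knockout library 1, above the range of 1963 to 2909 of the other 5 libraries.

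The 5 mitochondrial acyl-CoA dehydrogenases, which take the first pair of electrons from chains of different length, all had higher means in the labelled knockout, and none passed the test. Acadm, for medium chains, had 13905, 6264 and 6240 normalized counts in labelled-knockout libraries 1, 2 and 3 and 6319, 4849 and 6643 in wild-type libraries. Only labelled-knockout library 1 lay outside the wild-type range. That gave a log2 fold change of 0.47 (limma SE 0.32, 95% interval -0.25 to 1.19, adjusted p = 0.628), and 0.09 without that library. Acads, for short chains, had 3643, 3213 and 3428 in the labelled knockout, against 2591, 2097 and 3881 in wild type. This gave a log2 fold change of 0.31 (limma SE 0.23, adjusted p = 0.663), 0.26 without labelled-knockout library 1 and 0.11 without wild-type library 2. The values were 0.16 for Acadl (long chains), 0.22 for Acadvl (very long chains) and 0.23 for Acadsb (short branched chains). Without labelled-knockout library 1 these 3 became 0.11, -0.06 and -0.17.

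Electrons from these dehydrogenases pass to the electron transfer flavoprotein, made of the subunits Etfa and Etfb, and on to its membrane oxidoreductase Etfdh. The subunits went opposite ways in their means. Etfa had 5337, 3350 and 3228 normalized counts in labelled-knockout libraries 1, 2 and 3 and 3881, 3081 and 3411 in wild-type libraries, a log2 fold change of 0.17 (limma SE 0.22, adjusted p = 0.819). Etfb had 855, 928 and 710 in the labelled knockout and 1254, 916 and 1198 in wild type. The groups met only at wild-type library 2, which lay just below labelled-knockout library 2. The log2 fold change was -0.43 (limma SE 0.18, 95% interval -0.85 to -0.01, adjusted p = 0.486), and -0.45 without labelled-knockout library 1. Etfdh had a log2 fold change of 0.01. Of the 50-base words of Etfb exons, 43.8% also occur in Gm45233, an overlapping gene on the same strand with at most 1.85 normalized counts, so how its reads were assigned bears on the level of Etfb.

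Of the matrix enzymes that follow, Hadha, Hadhb, Hadh, Echs1 and Acaa2, all 5 were highest in labelled-knockout library 1. Hadha and Hadhb encode the subunits of the trifunctional protein, which carries out the last steps of long-chain oxidation. They lie head to head, and their RefSeq starts are 272 bases apart. The RefSeq table for GRCm38.p6 holds promoters of 26 of the 31 members, and a few stretches are shown, because they hold a motif match or belong to genes set against each other. The stretch between Hadha and Hadhb outside annotated exons, chr5:30155163-30155247 on the plus strand, is printed with the GC box GGGCGG in capitals.
Hadha-Hadhb: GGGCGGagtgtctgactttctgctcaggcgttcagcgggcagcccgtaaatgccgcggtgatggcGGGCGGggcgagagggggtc
Within 100 bases upstream of the start, GGGCGG on either strand was present in 17 of 27 member promoters (63%), against 24.7% of all 32851 promoters.

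The 2 trifunctional genes differed in how far library 1 stood out. Hadha had 8949, 4577 and 4438 normalized counts in labelled-knockout libraries 1, 2 and 3 and 4580, 4243 and 5284 in wild-type libraries. Hadhb had 8397, 3246 and 2871 in the labelled knockout, against 2920, 2475 and 3102 in wild type. Labelled-knockout library 1 was above all others for both, 1.69 times the next highest for Hadha and 2.59 times for Hadhb. The log2 fold change of Hadha was 0.27 (limma SE 0.27, adjusted p = 0.746) and that of Hadhb 0.60 (limma SE 0.38, adjusted p = 0.617), and without that library -0.06 and 0.11. Of the 50-base words of Hadhb exons, 19.7% also occur in another gene and 18.1% in Gm13910, which had 2339, 878 and 707 in the labelled knockout and 762, 599 and 899 in wild type. Echs1, the short-chain hydratase, had 5085, 3092 and 3089 in the labelled knockout and 3028, 2056 and 2788 in wild type. Every labelled-knockout value was above every wild-type value, which 8.27% of all genes also showed. Echs1 was the only member higher in this way, at a log2 fold change of 0.49 (limma SE 0.24, adjusted p = 0.536), and 0.26 without labelled-knockout library 1. Its exons touch those of Paox on the other strand, and the use of strand is not stated. Acaa2, the mitochondrial thiolase, had a log2 fold change of -0.23, and -0.66 without that library. Hadh, the short-chain hydroxyacyl-CoA dehydrogenase, had 0.18, and 0.003 without it.

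PPAR-alpha with RXR binds a direct repeat of AGGTCA spaced by 1 base. The motif AGGTCANAGGTCA, with up to 2 mismatches of its 12 fixed bases and on both strands, was present within 250 bases upstream in 2 of 27 member promoters (7.41%), against 3.24% of all 32851, and without a mismatch in 0 members, against 0.0335% of all. The members with a match were Echs1 at chr7:140116480-140116516 on the minus strand and Etfa at chr9:55512296-55512332 on the minus strand, shown with the match in capitals.
Echs1: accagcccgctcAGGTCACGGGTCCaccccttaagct
Etfa: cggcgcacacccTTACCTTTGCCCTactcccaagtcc
A match describes letters only.

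The auxiliary enzymes, which move or remove double bonds of unsaturated chains, were near 0 or lower. Eci2, an enoyl-CoA isomerase, had 1843, 1808 and 1861 normalized counts in labelled-knockout libraries 1, 2 and 3 and 2062, 2145 and 2802 in wild-type libraries. All 3 labelled-knockout values lay below all wild-type values, as did those of 9.43% of all genes, and Eci2 was the only such member. For Eci2 the log2 fold change was -0.33 (limma SE 0.17, adjusted p = 0.541), -0.34 without labelled-knockout library 1 and -0.19 without wild-type library 3. Decr1, the dienoyl-CoA reductase, had 3787, 4401 and 3768 in the labelled knockout and 5093, 3569 and 4830 in wild type, a log2 fold change of -0.16 (limma SE 0.18, adjusted p = 0.784). The log2 fold changes of Eci1 and Ech1 were 0.03 and 0.12.

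Among the 8 peroxisomal members, labelled-knockout library 1 was the highest for 3 (37.5%), against 14 of the 21 members other than peroxisomal and regulator genes (66.7%). Acaa1b, a peroxisomal thiolase of rodents, had 6422, 10391 and 7959 normalized counts in labelled-knockout libraries 1, 2 and 3 and 15311, 9071 and 21535 in wild-type libraries. The groups overlapped in wild-type library 2 only. Acaa1b was the only member lowest in labelled-knockout library 1, where 6781 of all 21721 genes tested were lowest. The means were 8258 ± 2001 in the labelled knockout and 15306 ± 6232 in wild type (SD, n = 3 each). That is a log2 fold change of -0.83 (limma SE 0.32, 95% interval -1.56 to -0.10, adjusted p = 0.455). Leaving out labelled-knockout library 1 gave -0.66 and leaving out wild-type library 3 gave -0.54, and its adjusted p was 0.401 with edgeR and 0.184 with DESeq2. Acaa1a, its close paralog, had 3765, 3307 and 2932 in the labelled knockout and 2508, 2114 and 3437 in wild type. Its means lay the other way, at a log2 fold change of 0.33 (limma SE 0.21, adjusted p = 0.605), and 0.18 without wild-type library 2. Of the 50-base words of Acaa1b, 30.5% also occur in Acaa1a, and of those of Acaa1a 12.4% in Acaa1b, so reads may be split between them in ways the sources used here do not state. On the other strand, exons of Myd88 touch those of Acaa1a and exons of Dlec1 those of Acaa1b. Both lie on chromosome 9, and the 100 bases before their RefSeq starts are shown because the paralogs had means on opposite sides. They are chr9:119341194-119341293 on the plus strand for Acaa1a and chr9:119157094-119157193 on the minus strand for Acaa1b, with GGGCGG on either strand in capitals.
Acaa1a: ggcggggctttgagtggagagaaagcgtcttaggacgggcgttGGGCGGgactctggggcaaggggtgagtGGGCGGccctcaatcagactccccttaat
Acaa1b: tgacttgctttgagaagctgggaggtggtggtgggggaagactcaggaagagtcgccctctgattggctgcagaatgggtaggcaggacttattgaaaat
The Acaa1a stretch held 2 GC boxes and the Acaa1b stretch 0. A link between these letters and the levels of the paralogs was not tested.

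None of the other peroxisomal genes passed the test either. Ehhadh, the bifunctional enzyme and a classic PPAR-alpha target, had 9346, 8591 and 6793 normalized counts in labelled-knockout libraries 1, 2 and 3 and 10070, 8582 and 12888 in wild-type libraries. Labelled-knockout library 3 lay below the wild-type range, and wild-type libraries 1 and 3 lay above the labelled-knockout range. For Ehhadh the log2 fold change was -0.34 (limma SE 0.21, 95% interval -0.82 to 0.13, adjusted p = 0.599), -0.44 without labelled-knockout library 1 and -0.19 without wild-type library 3. The log2 fold changes of Acox3 (branched-chain oxidase), Hsd17b4 (D-bifunctional enzyme), Crot (carnitine octanoyltransferase), Amacr (racemase) and Scp2 (thiolase and sterol carrier) ran from -0.18 for Crot to 0.23 for Acox3. That of Acox3 was -0.16 without labelled-knockout library 1. Scp2 shares 29.7% of its 50-base words with the pseudogene Scp2-ps2.

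Ratios per kilobase were taken within 4 pairs chosen after the values were seen. With 3 libraries in each group the exact two-sided permutation test cannot go below 0.1, so no pair could pass the threshold of 0.05. Any pair whose groups do not overlap gets 0.1. Acaa1b over Acaa1a was 3.84, 7.07 and 6.11 in labelled-knockout libraries 1, 2 and 3 and 13.7, 9.65 and 14.1 in wild-type libraries. The groups did not overlap, with means of 5.67 ± 1.66 in the labelled knockout and 12.5 ± 2.47 in wild type (SD, n = 3 each), at an exact permutation p of 0.1 (adjusted 0.133 over 4 pairs). The log2 difference was -1.17, and -0.91 without labelled-knockout library 1. Hadhb over Hadha was 1.24, 0.939 and 0.857 in the labelled knockout and 0.844, 0.772 and 0.777 in wild type (log2 difference 0.33, exact permutation p = 0.1, adjusted 0.133). Etfb over Etfa was 0.253, 0.436 and 0.347 in the labelled knockout and 0.509, 0.469 and 0.554 in wild type (log2 difference -0.60, exact permutation p = 0.1, adjusted 0.133). These 2 pairs also did not overlap, at the smallest p the design allows, so their p only restates that separation. Without labelled-knockout library 1 the log2 difference was 0.17 for Hadhb over Hadha and -0.39 for Etfb over Etfa. The adjustment over 4 pairs does not account for choosing them after the values were seen. Ratios of other gene pairs were not taken, so how often such separation occurs is not known. Cpt2 over Cpt1a was 0.943 ± 0.127 in the labelled knockout and 1.04 ± 0.205 in wild type (SD, n = 3 each; exact permutation p = 0.5, adjusted 0.5).

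**Figure D5:**
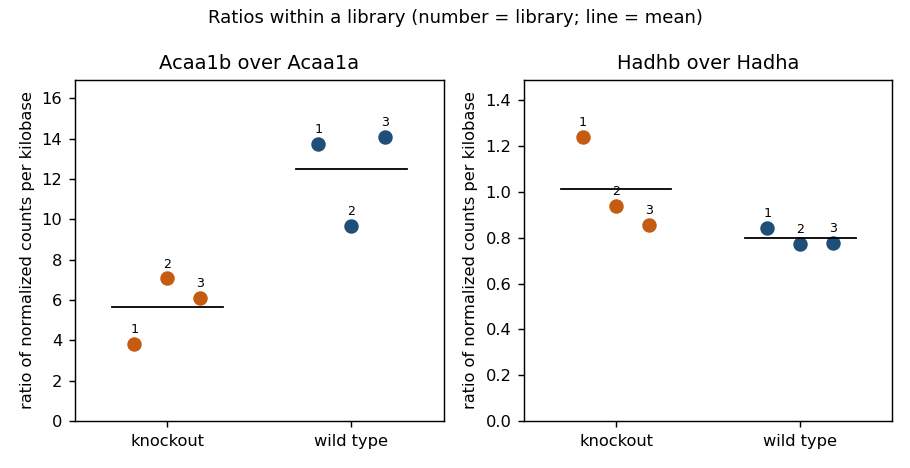
Ratio of normalized counts per kilobase (y axis) for Acaa1b over Acaa1a and for Hadhb over Hadha in each library, labelled knockout left of wild type; numbered points are libraries and lines are means (n = 3). Acaa1b over Acaa1a was between 3.84 and 7.07 in the labelled knockout and between 9.65 and 14.1 in wild type.

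A wider list of 66 genes of the same pathways, all tested, showed 0 calls with limma (0.0046% of all genes), edgeR and DESeq2. At an unadjusted p under 0.05 limma had 4 higher (background 3.94%) and 5 lower (6.14%). Groups that did not overlap were seen for 7 genes higher in the labelled knockout (8.27% of all genes) and 4 lower (9.43%). Apart from a few fixed by name, genes named from this list were picked by a small limma p, which favours such separation. The median log2 fold change was 0.05, and -0.06 without labelled-knockout library 1. Of 11 nuclear receptors and cofactors, 10 had a log2 fold change above 0, and labelled-knockout library 1 was the highest for 10. Their median was 0.42, and 0.03 without that library. Rxra, the partner of PPAR-alpha, had 3344, 2742 and 2603 normalized counts in labelled-knockout libraries 1, 2 and 3 and 2168, 1770 and 2241 in wild-type libraries. The groups did not overlap, at a log2 fold change of 0.49 (limma SE 0.17, adjusted p = 0.429), and 0.38 without labelled-knockout library 1. Ppard, the related receptor PPAR-delta, also did not overlap, with 757, 493 and 440 in the labelled knockout and 298, 364 and 386 in wild type (log2 fold change 0.66, limma SE 0.24, adjusted p = 0.437). Leaving out labelled-knockout library 1 gave 0.42. Ppargc1a, a coactivator of mitochondrial genes, had 1095, 622 and 606 in the labelled knockout and 609, 567 and 496 in wild type. A log2 fold change of 0.42 became 0.14 without labelled-knockout library 1.

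Of 22 further PPAR-alpha target genes, 18 had a log2 fold change below 0. The median was -0.20, with -0.43 without labelled-knockout library 1 and -0.06 without wild-type library 3, where 12 were below 0 and 10 above. Wild-type library 3 was above the wild-type mean for all 22, by a median of 0.43 on the log2 scale. Vnn1, a pantetheinase, had 1803, 2783 and 2149 normalized counts in labelled-knockout libraries 1, 2 and 3 and 2831, 3501 and 5417 in wild-type libraries, with no overlap (log2 fold change -0.77, limma SE 0.26, adjusted p = 0.425). Ucp2, a mitochondrial carrier, had 3602, 6797 and 7128 in the labelled knockout and 7509, 9486 and 13733 in wild type, again with no overlap (log2 fold change -0.83, limma SE 0.31, adjusted p = 0.451). Fabp1, the liver-type fatty acid binding protein, was low, at 13.4, 21.3 and 1.03 in the labelled knockout and 40.1, 23.1 and 67.1 in wild type (log2 fold change -2.23, limma SE 0.88, adjusted p = 0.465). Its values also did not overlap. Such separation was seen in 3 of the 22 genes, all lower, against 9.43% of all genes. Without labelled-knockout library 3 the log2 fold change of Fabp1 was -1.19, without wild-type library 3 that of Vnn1 was -0.51, and without labelled-knockout library 1 that of Ucp2 was -0.51. Txnip had 6908, 3377 and 3755 in the labelled knockout and 5179, 9306 and 11740.5 in wild type. Its groups overlapped at labelled-knockout library 1 and wild-type library 1, with a log2 fold change of -0.90 (limma SE 0.36, adjusted p = 0.474). Fgf21, a hormone of the fasted state, lay the other way in its mean, but was also low. It had 31.2, 10.65 and 16.5 in the labelled knockout and 2.51, 2.78 and 11.4 in wild type (log2 fold change 1.77, limma SE 0.68, adjusted p = 0.452). Its groups overlapped at labelled-knockout library 2 and wild-type library 3, and the libraries held only 3 to 28 recovered reads of it. Cyp4a14, a fatty acid hydroxylase, spread more than its group difference, with 19013, 4650 and 1031 in the labelled knockout and 7458, 3242 and 5935 in wild type. This gave a log2 fold change of -0.22 with limma, but 0.56 with edgeR. Cpt1b, the muscle and brown fat form of the acyltransferase, was at 30.1, 21.3 and 0 in the labelled knockout and 4.18, 15.7 and 11.4 in wild type, too low to show a direction.

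Among 33 other oxidation enzymes and carriers, 21 had a log2 fold change above 0. The median was 0.14, with -0.03 without labelled-knockout library 1 and 0.03 without wild-type library 2. Mmut, the methylmalonyl-CoA mutase that finishes odd-chain oxidation, had 3865, 2048 and 2251 normalized counts in labelled-knockout libraries 1, 2 and 3 and 2024, 1305 and 1699 in wild-type libraries. The groups lay just apart, as for 3 of the 33 genes in this direction (8.27% of all genes). The log2 fold change of Mmut was 0.66 (limma SE 0.27, adjusted p = 0.467), and 0.38 without labelled-knockout library 1. Slc25a20, the carnitine carrier of the inner membrane, had a log2 fold change of -0.42 (limma SE 0.22, adjusted p = 0.554), and -0.26 without wild-type library 3.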

How the data were processed

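RNA sequencing of mouse kidney gave 6 libraries, grouped by genotype and title in the labels, with 15518083 to 20356601 recovered reads each. Deposited was a signal for each gene: the values themselves show read counts that the authors divided by 1 size factor per library. In every library 100% of the values were whole reads within 0.001 reads. Per the submitters' processing notes the build was mm10. The aligner, counter, annotation and use of strand are not stated there or in the labels. Reads of overlapping genes on the other strand and of near-identical genes are therefore uncertain. The 7 members that touch an exon of such an overlapping protein-coding gene are Crat, Acadvl, Etfdh, Hadha, Echs1, Acaa1a and Acaa1b. Over 10% of their 50-base words are shared with another gene in 5 members.

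The main test was limma 3.58.1 (trend and robust) on log2(normalized count + 1), with genes of a mean of at least 1 (21721), adjusted after Benjamini and Hochberg over all of them at a threshold of 0.05. Fold changes on this scale understate the change of low genes. On the recovered reads, edgeR 4.0.16 called 1 gene of 15915 and DESeq2 1.42.0 called 316 of 16222, in R 4.3.3. Other alternatives were filters, pseudocounts of 0.1 and 10, TMM scaling, a replicate block and leaving out each library. The scripts were tested on simulated data. The members and lists were chosen with earlier results of these data known.

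Values in every library were given for 9 members fixed by name, for the 2 members of smallest limma p in each role class, and from the wider list for up to 4 genes in each direction plus a few fixed genes; pairs for ratios are stated to be chosen later. A few of these genes are not reported here. Mmut is listed under its older symbol. GENCODE M21 held 99.95% of the identifiers. Promoters came from RefSeq for GRCm38.p6, and member sequences outside that table were not used here.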

Additional observations from a re-analysis of the deposited data

How the results depend on the processing

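No alternative called a member or a gene of the wider list. The count of genes called was 1, and 5 with no filter on low values, 2 with a pseudocount of 10, 4 with TMM scaling, 316 with DESeq2 and 16 with the replicate block; leaving out each library gave 1 to 6, the 6 when labelled-knockout library 1 was left out and 3 for library 3. Same-numbered libraries deviated with correlations of 0.07, -0.15 and 0.12, so the numbers were not taken as pairs, and labelled-knockout library 2 correlated best with wild-type library 1 (0.20). Of 238 alternative values of summaries, 11 were marked as moved and 227 were not. Medians without that mark could still shift far or change sign. For brown fat markers, 3.41 became 1.21 without labelled-knockout library 1 and 5.97 without library 3. Without labelled-knockout library 1, erythrocyte markers went from 0.62 to -0.67, neutrophil markers from 0.90 to -0.20 and the members from 0.07 to -0.11. Of 406 alternative values of named genes, 386 kept their direction and 20 did not. Directions turned for Pdk4 (log2 fold change 0.072 with edgeR, 0.0757 with DESeq2), Ppara (-0.012 with TMM scaling), Cpt1b (0.23 with a pseudocount of 10, 0.72 with edgeR and 0.72 with DESeq2) and Cyp4a14 (0.56 with edgeR, 0.57 with DESeq2). Leaving out each library gave -0.18 to 1.21 for Acsl1, -0.0658 to 0.30 for Etfa, -0.0552 to 0.45 for Hadha, -1.38 to 0.50 for Pdk4, -0.15 to 0.16 for Ppara, -1.12 to 1.36 for Cpt1b and -1.26 to 0.845 for Cyp4a14. The median of all members ran from -0.11 to 0.20. That of hepatocyte markers ran from 0.40 to 1.33, muscle from -0.27 to 0.49 and macrophage from -0.79 to -0.30. The cause was not tested. TMM scaling moved the median of all genes by -0.015. With 3 libraries in each group the median SE of a member was 0.22. Differences well above that size were not told from error either. With limma, Acaa1b at a log2 fold change of -0.83 (SE 0.32) had an adjusted p of 0.455. Hadhb at 0.60 (SE 0.38) had an adjusted p of 0.617. The lack of calls among the members therefore does not exclude differences of such size.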

Other observations

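Marker lists of other cell types, given for the same contrast, had these median log2 fold changes, each with its value without labelled-knockout library 1: endothelial -0.90 and -1.20, macrophage -0.43 and -0.79, neutrophil 0.90 and -0.20, erythrocyte 0.62 and -0.67, thick limb and distal tubule -0.13 and -0.83, collecting duct -0.29 and -0.64, hepatocyte 0.96 and 0.45, muscle 0.44 and 0.10, and the mitochondrial genome 0.37 and 0.25. The erythrocyte and collecting duct lists share Slc4a1. Endothelial markers were lower in the labelled knockout in 7 of 8 genes, and in 8 of 8 without labelled-knockout library 1. Proximal tubule markers had 0.71 and 0.32. Their bearing on the oxidation genes was not tested.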
